A study of Mus musculus with 6 samples.

Results

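Liver sinusoidal endothelial cells (LSECs) of Lyve-1-KO and Ctrl mice were isolated for gene expression analysis, and the macrophage RNA that came along with them was read from 35 genes of Kupffer cells and other macrophages. The genes were named by symbol, with earlier results of these data known. Of the 35, 34 had a row among the 24479 genes measured, and Lyz2 had none. Each of the 6 Affymetrix MoGene-2_0-st arrays held 1 pool of LSECs from 3 mice, with 3 pools per group. Lyve-1-KO mice carried the B6.129S1-Lyve1tm1Lhua/J allele in all cells on a C57BL/6 background, and Ctrl mice were C57BL/6J, with littermates as well as purchased wild-type animals among the controls that the methods list. The labels name no treatment of the mice and give no age. The cells were obtained by collagenase perfusion, a Nycodenz gradient and magnetic beads against CD146, an endothelial surface protein. Levels are deposited log2 values, 1 unit being 1 doubling of the signal, and values are listed in the order of replicates 1 to 3.

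Kupffer cells are the resident macrophages of the liver. They sit inside the sinusoids, attached to LSECs, and take up bacteria, dying cells and aged red blood cells from portal blood. They depend on Csf1r, the receptor of colony stimulating factor 1, and on the lineage factor PU.1, and they are told apart from recruited monocytes by genes such as Clec4f, Vsig4 and Timd4. Kupffer cells make much of the C1q of the body, the molecule that opens the classical complement pathway. Preparations of LSECs usually hold some Kupffer cells.

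Lyve1 itself lay at 12.85, 12.88 and 12.83 on the arrays labelled Lyve-1-KO and at 12.78, 12.69 and 12.84 on the Ctrl arrays. No decrease of its signal went with the Lyve-1-KO label, and the difference was 0.08 ± 0.06 (SE, n = 3 and 3, limma, adjusted p = 0.663). The position of its probes relative to the disrupted part is not given in the sources used here. The signal therefore does not check the labels, and Lyve-1-KO below means labelled Lyve-1-KO. The paper reports the loss of Lyve-1 protein in liver tissue of Lyve-1-KO mice, by immunoblot and immunofluorescence. The 14 LSEC markers averaged 12.77, 12.75 and 12.76 in Lyve-1-KO and 12.80, 12.78 and 12.79 in Ctrl, so these markers were near level on all 6 arrays. Genes of large-vessel and pericentral endothelium were not, as given below. Ctrl replicate 1 stood apart in the macrophage genes, and the main results are therefore given with and without it. In such pools, fewer macrophages and less RNA per macrophage cannot be told apart.

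The macrophage genes did not separate Lyve-1-KO from Ctrl, but they separated the arrays from each other. Averaged over the 34 genes, the level was 8.22, 8.71 and 8.99 in Lyve-1-KO and 7.41, 8.93 and 8.54 in Ctrl. The lowest array and the second highest thus both belonged to Ctrl, and the group means were 8.64 ± 0.39 and 8.29 ± 0.79 (SD, n = 3). Ctrl replicate 1 was the lowest of the 6 arrays in 32 of the 34 genes, as compared to 16.1% of all genes. Ctrl replicate 2 was the highest in 15 and Lyve-1-KO replicate 3 in 13, as compared to 15.9% and 16.6% of all genes. The gap of Ctrl replicate 1 to the mean of the other Ctrl arrays had a median of -1.51 over the macrophage genes and of 0.013 over all genes. Over the 6 arrays 27 of the 34 genes spanned at least 1 log2 unit, which 3.84% of all genes did, and the median standard deviation within the groups was 0.75, as compared to 0.11. Counts and averages over the 34 genes include Hpgd, Mertk and Sirpa, which hardly varied. Which cells gave the signal of these genes was not tested.

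**Figure D1:**
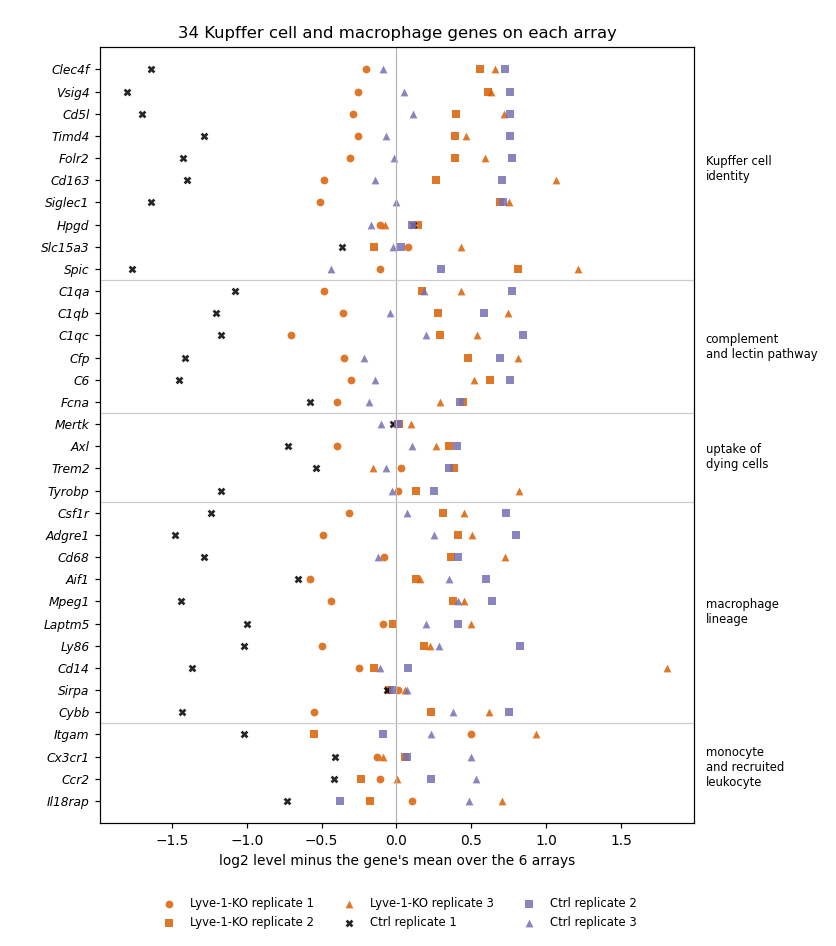
Log2 level of the 34 genes on each array, as the difference from the mean of each gene over the 6 arrays, with 1 symbol per array and the genes grouped by role. Ctrl replicate 1 (black crosses) is the lowest array in 32 of 34 genes, while Hpgd, Mertk and Sirpa hardly vary.

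The comparison of Lyve-1-KO with Ctrl asks whether the LSEC preparations of the mutant carried more or less macrophage RNA. None of the 34 genes passed an adjusted p of 0.05 in limma, a threshold that 1 gene or 0.00409% of all genes passed. At an unadjusted p under 0.05, 0 genes were higher (5.87% of all genes) and 0 were lower (5.33% of all genes), and the methods' test, a one-way analysis of variance per gene, also gave 0 in both directions. The groups overlapped in each of the 34 genes, while 17.4% of all genes had groups that did not. The differences of 29 genes were above 0 (48.8% of all genes) and those of 5 below (51.1% of all genes), with a median of 0.29 as compared to -0.004 over all genes. With the replicate number as a block, 4 of the 34 genes (Spic, Il18rap, Siglec1 and Cd68) were higher at an unadjusted p under 0.05, as compared to 5.78% of all genes, and 0 passed the adjusted threshold. Il18rap, carried by NK and T cells, did not follow Clec4f closely (Pearson r 0.505). Neither labels nor methods pair the pools by number. All results of this block, and differences between pools of the same number, thus rest on an assumed pairing.

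Among the 10 Kupffer cell identity genes, 9 had a difference above 0 and 1 below, 0 passed the test, and the median was 0.55. Clec4f, the galactose-binding lectin that in mice is restricted to Kupffer cells, lay at 9.86, 10.62 and 10.72 in Lyve-1-KO and at 8.42, 10.79 and 9.97 in Ctrl. The highest and the lowest array were both Ctrl. Its difference was 0.68 ± 0.57 (SE, adjusted p = 0.70) and 0.02 ± 0.34 without Ctrl replicate 1. Vsig4, the complement receptor CRIg that captures bacteria coated with C3, read 8.95, 9.82 and 9.84 in Lyve-1-KO and 7.41, 9.97 and 9.26 in Ctrl. Cd5l, a secreted scavenger protein that keeps macrophages alive, read 9.50, 10.19 and 10.51 as compared to 8.09, 10.55 and 9.90. Both ranked the 6 arrays as Clec4f did, and their differences of 0.66 ± 0.63 and 0.55 ± 0.61 (SE) became -0.07 and -0.16 without Ctrl replicate 1.

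Timd4, the phosphatidylserine receptor of long-lived Kupffer cells, lay at 7.20, 7.85 and 7.92 in Lyve-1-KO and at 6.17, 8.22 and 7.39 in Ctrl. Folr2, a folate receptor of resident macrophages, lay at 9.0, 9.70 and 9.90 as compared to 7.88, 10.08 and 9.29. Both had the lowest and the highest level in Ctrl. Siglec1, the sialic acid receptor CD169, was measured at 6.69, 7.89 and 7.95 in Lyve-1-KO and at 5.56, 7.91 and 7.20 in Ctrl. Cd163, the receptor that takes up hemoglobin bound to haptoglobin, was at 7.39, 8.14 and 8.94 as compared to 6.48, 8.58 and 7.73. Lyve-1-KO replicate 3 was the highest array for Siglec1 and for Cd163, and the difference of Cd163 went from 0.56 ± 0.58 to 0.00 ± 0.47 (SE) without Ctrl replicate 1.

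Spic, the transcription factor of red pulp and bone marrow macrophages that handle heme, had the largest difference of the 34 genes. It lay at 6.69, 7.61 and 8.01 in Lyve-1-KO and at 5.03, 7.10 and 6.36 in Ctrl. Lyve-1-KO replicate 1 stood below Ctrl replicate 2, so the groups overlapped. The difference was 1.27 ± 0.55 (SE, unadjusted p = 0.0558, adjusted p = 0.458), and 0.71 ± 0.42 (adjusted p = 0.569) without Ctrl replicate 1. Between pools of the same number, Spic was higher in Lyve-1-KO by 1.66, 0.51 and 1.65, and the block gave an unadjusted p of 0.00329 and an adjusted p of 0.266 in limma.

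Hpgd and Slc15a3 did not share this pattern. Hpgd, the enzyme that inactivates prostaglandins, ran from 11.26 to 11.57 over all arrays, and Ctrl replicate 1 was at 11.54. Slc15a3, a lysosomal transporter of histidine and peptides, was at 8.23, 8.0 and 8.58 in Lyve-1-KO and at 7.79, 8.18 and 8.13 in Ctrl. Their Pearson correlations with Clec4f over the 6 arrays were -0.061 and 0.674.

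The 6 genes of the complement and lectin pathway again had Ctrl replicate 1 as their lowest array. C1qa, C1qb and C1qc encode the chains of C1q and lie side by side on chromosome 4. C1qa read 8.16, 8.82 and 9.08 in Lyve-1-KO and 7.57, 9.42 and 8.83 in Ctrl. C1qc read 8.0, 8.99 and 9.24 as compared to 7.53, 9.55 and 8.90. In both genes the difference was 0.08 with all arrays (SE 0.47 and 0.54) and -0.44 and -0.48 without Ctrl replicate 1. C1qb, at 10.04, 10.67 and 11.14 in Lyve-1-KO and 9.19, 10.98 and 10.35 in Ctrl, had differences of 0.44 ± 0.47 and -0.05 ± 0.34 (SE).

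Cfp, which encodes properdin, the stabilizer of the alternative pathway, lay at 8.81, 9.64 and 9.97 in Lyve-1-KO and at 7.75, 9.85 and 8.94 in Ctrl. C6, a component of the membrane attack complex, lay at 7.53, 8.46 and 8.35 as compared to 6.38, 8.59 and 7.69. Fcna, a ficolin that starts the lectin pathway, spanned the least of the 6 genes, 9.37, 10.21 and 10.06 as compared to 9.19, 10.19 and 9.58. The differences of Cfp, C6 and Fcna were 0.63, 0.56 and 0.23, and 0.08, -0.03 and 0.00 without Ctrl replicate 1. The median over the 6 genes was 0.34 with all arrays and -0.04 without Ctrl replicate 1.

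**Figure D2:**
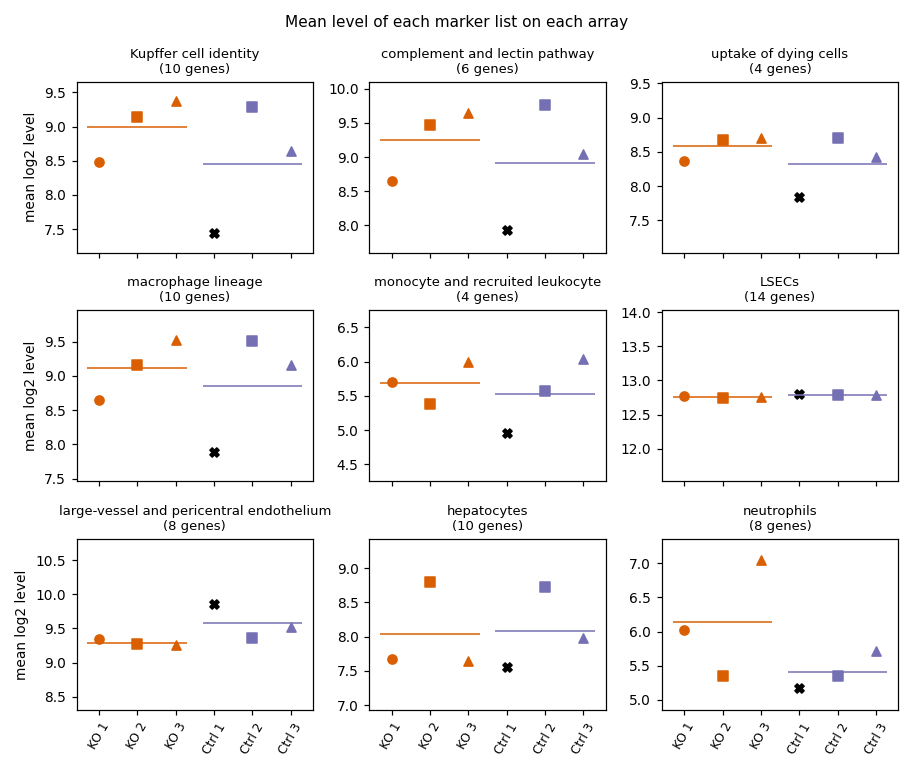
Mean log2 level of 9 marker lists on each array, with each axis spanning the same 2.5 log2 units and lines at the group means. The lists of macrophage genes dip on Ctrl replicate 1, LSEC markers stay near 12.8, large-vessel endothelial genes peak on Ctrl replicate 1 and neutrophil genes on Lyve-1-KO replicate 3.

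Sequence shared by these genes was examined in their promoters, since the genes moved together over the arrays and the rule that named them used no sequence. Of the 34 genes, 26 had promoters in the RefSeq table (GRCm38.p6), 27 entries in all. In the 250 bases before the start, GAGGAA, the core of sites bound by PU.1, was present on either strand in 13 of 27 promoters (48.1%), as compared to 23.3% of 32851 promoters. TGCTGAC, the core of sites of MAF factors, was present on either strand in 2 (7.41%, as compared to 3.81%), and TATAAA on the strand of the gene in 1 (3.7%, as compared to 7.59%). None of the motifs is part of another. The promoters of the Kupffer cell identity genes with the widest range over the arrays and of the C1q genes with an entry are shown, since GAGGAA is present in some and not in others. They are the bases before the start of Spic on the minus strand (chr10:88683024-88683273), Vsig4 on the minus strand (chrX:96293439-96293688), Cd5l on the plus strand (chr3:87357631-87357880), C1qb on the minus strand (chr4:136886201-136886450) and C1qc on the minus strand (chr4:136892937-136893164). For C1qc 228 bases are shown, since the 22 bases nearest to the start used in the table lie within the annotated span of the gene. Capitals mark GAGGAA, or TTCCTC where the motif is on the other strand, and Spic holds neither in this window.
Vsig4: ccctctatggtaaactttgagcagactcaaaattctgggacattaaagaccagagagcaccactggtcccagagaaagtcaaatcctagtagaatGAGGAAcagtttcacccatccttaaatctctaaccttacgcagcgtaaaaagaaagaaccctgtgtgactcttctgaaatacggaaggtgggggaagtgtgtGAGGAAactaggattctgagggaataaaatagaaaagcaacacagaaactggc
Cd5l: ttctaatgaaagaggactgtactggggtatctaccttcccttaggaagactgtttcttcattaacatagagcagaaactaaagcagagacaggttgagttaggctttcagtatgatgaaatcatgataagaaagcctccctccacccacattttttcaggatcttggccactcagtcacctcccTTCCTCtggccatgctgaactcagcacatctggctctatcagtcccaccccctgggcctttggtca
C1qb: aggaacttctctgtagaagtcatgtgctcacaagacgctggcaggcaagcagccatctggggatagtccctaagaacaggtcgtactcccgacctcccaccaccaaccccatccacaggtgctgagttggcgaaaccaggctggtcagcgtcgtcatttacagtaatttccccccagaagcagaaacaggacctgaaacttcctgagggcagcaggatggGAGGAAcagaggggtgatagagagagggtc
C1qc: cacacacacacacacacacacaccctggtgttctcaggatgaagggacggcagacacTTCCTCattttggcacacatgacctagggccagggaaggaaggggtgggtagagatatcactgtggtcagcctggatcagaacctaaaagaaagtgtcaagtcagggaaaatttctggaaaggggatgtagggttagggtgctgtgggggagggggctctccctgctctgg
Spic: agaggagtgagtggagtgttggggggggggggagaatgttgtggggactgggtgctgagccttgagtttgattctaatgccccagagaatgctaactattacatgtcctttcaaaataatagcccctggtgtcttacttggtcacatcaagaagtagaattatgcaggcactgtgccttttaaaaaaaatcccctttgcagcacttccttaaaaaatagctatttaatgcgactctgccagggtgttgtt

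GAGGAA was found in members that followed Clec4f, such as Vsig4, Cd5l and C1qb, and also in Hpgd, which did not. Its presence is a description of these letters and not of a bound factor.

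The genes for uptake of dying cells were split by how much they varied. Mertk, a receptor kinase that binds apoptotic cells through bridging proteins, stayed between 11.78 and 11.98 on all arrays. Axl, its relative, lay at 8.62, 9.37 and 9.28 in Lyve-1-KO and at 8.29, 9.42 and 9.12 in Ctrl, a difference of 0.15 ± 0.32 (SE) and of -0.18 without Ctrl replicate 1. Tyrobp, the adaptor DAP12 that carries the signal of Trem2, lay at 7.29, 7.41 and 8.10 as compared to 6.11, 7.53 and 7.25, a difference of 0.64 ± 0.39 (SE, adjusted p = 0.579) and of 0.22 without Ctrl replicate 1. Trem2, a lipid receptor of macrophages, ran from 5.08 to 6.0, the median of all genes being 5.04 on each array. Mertk thus varied by 0.21 over arrays on which Tyrobp varied by 1.99.

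Of the 10 macrophage lineage genes with a row, 8 had a difference above 0 and 2 below, 0 passed the test, and the median of 0.26 became -0.32 without Ctrl replicate 1. Csf1r read 9.24, 9.87 and 10.01 in Lyve-1-KO and 8.32, 10.29 and 9.63 in Ctrl. Adgre1, which encodes F4/80, the antigen used to stain mouse macrophages, read 6.90, 7.80 and 7.89 as compared to 5.91, 8.19 and 7.64. Both followed Clec4f, with correlations of 0.980 and 0.964 over the 6 arrays. Cd68, a lysosomal membrane protein, was at 9.98, 10.43 and 10.79 in Lyve-1-KO and at 8.78, 10.48 and 9.94 in Ctrl, and it kept a difference of 0.19 ± 0.27 (SE) without Ctrl replicate 1, from 0.66 ± 0.43.

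Cybb, the membrane subunit of the phagocyte NADPH oxidase, lay at 8.45, 9.23 and 9.62 in Lyve-1-KO and at 7.57, 9.75 and 9.38 in Ctrl. Mpeg1, the pore-forming protein of phagosomes, lay at 8.47, 9.29 and 9.36 as compared to 7.47, 9.55 and 9.32. Their differences changed sign without Ctrl replicate 1, from 0.19 to -0.47 and from 0.26 to -0.39. Aif1, the actin-binding protein Iba1, lay at 6.10, 6.81 and 6.84 in Lyve-1-KO and at 6.02, 7.28 and 7.03 in Ctrl. Ly86, the MD-1 partner of the receptor RP105, lay at 8.02, 8.70 and 8.74 as compared to 7.50, 9.34 and 8.80. Without Ctrl replicate 1, the differences of Aif1 and Ly86 were -0.57 ± 0.24 and -0.58 ± 0.27 (SE, adjusted p = 0.445 and 0.472 in limma). Laptm5, a lysosomal protein of blood cells, ran from 9.31 on Ctrl replicate 1 to 10.81 on Lyve-1-KO replicate 3, with differences of 0.26 ± 0.37 (SE) and of -0.18 without Ctrl replicate 1.

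Cd14 and Sirpa differed from the rest of this group. Cd14, the co-receptor for lipopolysaccharide, lay at 8.07, 8.17 and 10.13 in Lyve-1-KO and at 6.96, 8.40 and 8.21 in Ctrl. Lyve-1-KO replicate 3 alone was high, and the difference of 0.93 ± 0.62 (SE, adjusted p = 0.615) was 0.26 without that array. On the same array the 8 neutrophil genes averaged 7.04, as compared to 5.17 to 6.03 on the other arrays, with S100a8 at 8.80 (5.86 to 6.98 elsewhere). Their part in the level of Cd14 was not tested. Sirpa, the receptor of the signal CD47 that holds back phagocytosis, stayed between 11.02 and 11.15 on all arrays.

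The 4 genes of monocytes and recruited leukocytes had 2 differences above 0 and 2 below, 0 passed the test, and they ordered the arrays otherwise than the Kupffer cell genes. Itgam, the integrin CD11b, read 7.07, 6.02 and 7.50 in Lyve-1-KO and 5.55, 6.48 and 6.80 in Ctrl. Il18rap, a chain of the interleukin-18 receptor carried by NK and T cells, read 5.06, 4.78 and 5.66 as compared to 4.23, 4.58 and 5.44. Unlike Clec4f, both were lower on Lyve-1-KO replicate 2 than on replicate 1. Ncr1, a receptor of NK cells, was at 8.12, 6.92 and 7.96 as compared to 6.24, 6.84 and 8.0, and the part of NK cells in the level of Il18rap was not tested. Ccr2, the chemokine receptor that brings monocytes out of the bone marrow, read 5.13, 5.0 and 5.24 in Lyve-1-KO and 4.82, 5.47 and 5.77 in Ctrl. Cx3cr1, the fractalkine receptor, read 5.54, 5.73 and 5.58 as compared to 5.26, 5.74 and 6.17. The levels of Ccr2 and Il18rap lay around 5.04, the median of all genes on each array, and those of Cx3cr1 not far above it. Ccr2 was the only one of the 34 genes below an unadjusted p under 0.05 without Ctrl replicate 1 (6.21% of all genes were higher and 5.31% lower at this level), with a difference of -0.50 ± 0.12 (SE, unadjusted p = 0.00612, adjusted p = 0.30 in limma), as compared to -0.23 ± 0.23 with all arrays.

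Leaving out Ctrl replicate 1 turned the sign of 19 of the 34 genes and brought Cd163 to 0.00. Of the 34, 11 then had a difference above 0 (50% of all genes) and 22 below (49.9%), the median went from 0.29 to -0.05, and 0 passed the adjusted threshold (0.00817% of all genes). Spic, Cd14, Tyrobp, Itgam and Cd68 kept the largest positive differences, between 0.19 and 0.71. Leaving out Ctrl replicate 2, one of the arrays rich in macrophage RNA, moved the median to 0.67, and 4 genes (Cd68, Cfp, Spic and Clec4f) were then higher at an unadjusted p under 0.05, as compared to 4.6% of all genes, with adjusted p values of 0.384 to 0.498 in limma. The median also moved with the Lyve-1-KO arrays, to 0.52 without replicate 1, 0.32 without replicate 2 and 0.15 without replicate 3, and it was 0.47 without Ctrl replicate 3.

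**Figure D3:**
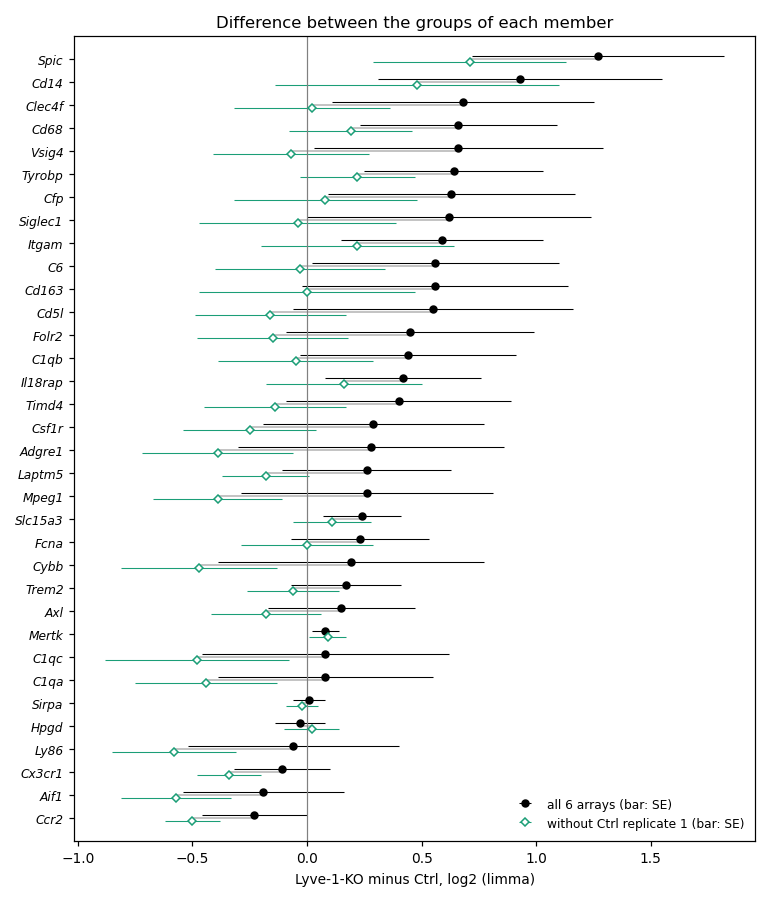
Difference of Lyve-1-KO minus Ctrl in log2 units for each of the 34 genes, with all 6 arrays (filled) and without Ctrl replicate 1 (open), and bars of 1 SE. The open symbols lie left of the filled ones in all genes but Hpgd and Mertk, and 22 of 34 lie below 0.

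The genes varied together. Over the 6 arrays, 20 of the 33 other genes correlated with Clec4f at a Pearson r of at least 0.9, as compared to 0.919% of all genes, and the median r was 0.928. Vsig4, C6, Folr2, Timd4 and Cd5l had r from 0.990 to 0.997. The points share the spread of a few arrays. On the 4 arrays left without Ctrl replicates 1 and 2, the arrays farthest from the median of Clec4f, 13 of the 33 genes had an r of at least 0.9. The lowest values over the 6 arrays were those of Hpgd (-0.061), Sirpa (0.339), Mertk (0.416) and Ccr2 (0.455).

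Because the arrays differed in macrophage signal, the genes were also set against the Kupffer cell level of their own array, a comparison chosen after the data had been seen. For each gene, its mean over the 6 arrays was subtracted, and then the median of the 10 Kupffer cell identity genes on the same array (for an identity gene, of the other 9), which was -0.26, 0.40 and 0.64 in Lyve-1-KO and -1.54, 0.72 and -0.05 in Ctrl. Among the 27 genes that spanned at least 1 log2 unit, Clec4f and Spic were then above Ctrl on all Lyve-1-KO arrays (2 genes, as compared to 0.639% of 939 such genes of the whole table, each set against the median of all 10). Below Ctrl on all Lyve-1-KO arrays were 8 genes, as compared to 8.09% of the 939, namely Folr2, C1qa, C1qc, Csf1r, Adgre1, Aif1, Ly86 and Cybb. The other 17 overlapped. Without Ctrl replicate 1, 3 genes were above (Cd68 in addition, as compared to 8.52% of the 939) and the same number, 8, below. The level was lowest on Ctrl replicate 1, so genes that do not follow it stand high there and can hardly be above Ctrl. It was highest on Ctrl replicate 2, so the same genes stand low there and can hardly be below Ctrl. The shares of 0.639% and 8.09% are therefore both low by construction. The first gives no measure for Clec4f and Spic, which are also among the genes that make the level. The second gives none for the 8 genes below. No test was run on these values, as the level is made from 10 of the genes themselves, and the remainders of a gene depend on how steeply its signal follows that level.

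Spic stood at 0.15, 0.42 and 0.58 against the Kupffer cell level in Lyve-1-KO and at -0.34, -0.42 and -0.42 in Ctrl. Ctrl replicate 1 was thus close to the other Ctrl arrays, and the difference was 0.77 with and 0.80 without it. C1qa stood at -0.23, -0.22 and -0.21 in Lyve-1-KO and at 0.46, 0.06 and 0.23 in Ctrl. C1qc stood at -0.45, -0.11 and -0.11 as compared to 0.37, 0.13 and 0.25. C1qb, the third chain, overlapped between the groups, at -0.10, -0.12 and 0.10 as compared to 0.33, -0.13 and 0.00. Among the 27 genes that spanned at least 1 log2 unit, Aif1 and Ly86 had the lowest differences, of -0.74 and -0.61, and -0.50 and -0.51 without Ctrl replicate 1. Measured against Clec4f alone, 1 of the other 26 genes was above (Spic, as compared to 0.32% of 938 genes) and 10 were below on all Lyve-1-KO arrays (10.8%). Clec4f itself could not be counted there, and over the same 26 genes the Kupffer cell level gave 1 above and 8 below. The shares of 0.32% and 10.8% are low by construction as well. Clec4f, too, was lowest on Ctrl replicate 1 and highest on Ctrl replicate 2.

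**Figure D4:**
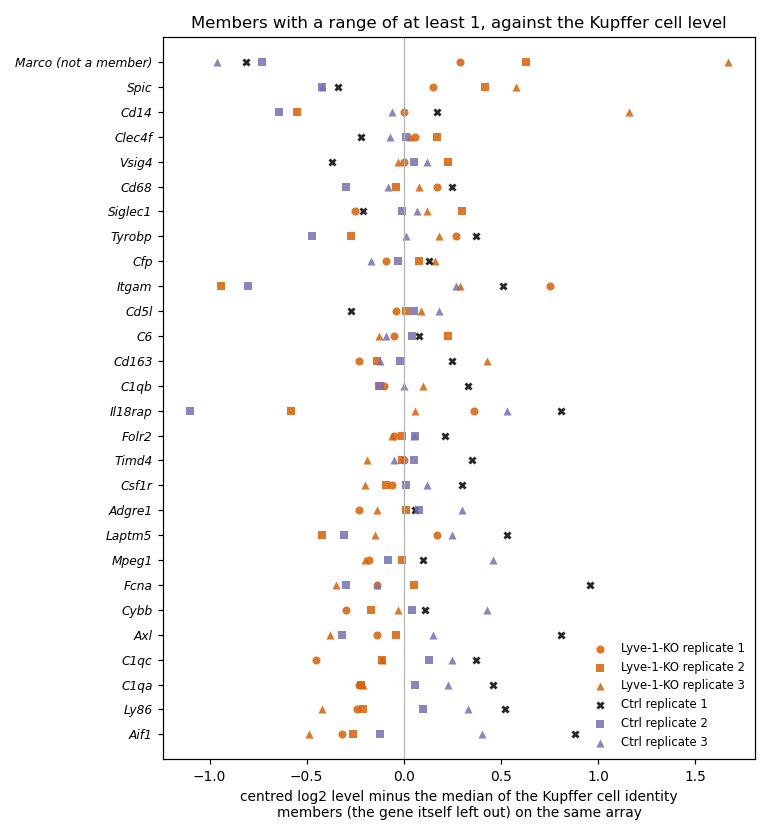
Level of the 27 genes that spanned at least 1 log2 unit, and of Marco, on each array in log2 units after subtraction of the mean of each gene and of the Kupffer cell level of the array. Spic, Clec4f and Marco are higher on all 3 Lyve-1-KO arrays than on all 3 Ctrl arrays, and 8 genes, among them Aif1, Ly86, C1qa and C1qc, are lower.

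Further genes of Kupffer cells and macrophages were listed by role, with earlier results of these data known. Of 12 further Kupffer cell genes with a row, 2 were higher at an unadjusted p under 0.05 in limma (Marco and Id1, as compared to 5.87% of all genes), none was lower (5.33% of all genes) and 0 passed the adjusted threshold. The block made it 3 higher, with Hmox1 in addition. Id1 ran from 10.17 to 10.59 over the 6 arrays and did not follow the macrophage signal (Pearson r with Clec4f -0.064). Which cells gave its signal was not tested. Marco, a scavenger receptor for bacteria and particles, lay at 8.71, 9.70 and 10.99 in Lyve-1-KO and at 6.33, 8.66 and 7.67 in Ctrl. The groups did not overlap, with a difference of 2.24 ± 0.72 (SE, unadjusted p = 0.0178, adjusted p = 0.355) and of 1.63 ± 0.67 without Ctrl replicate 1. Against the Kupffer cell level, Marco stood at 0.29, 0.63 and 1.67 in Lyve-1-KO and at -0.81, -0.73 and -0.96 in Ctrl. Of the identity genes, which make up this level, Clec4f and Spic were above Ctrl on all Lyve-1-KO arrays and Folr2 was below, while the others overlapped.

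Of 26 further macrophage genes, 1 was higher (Cd84, a signaling lymphocyte activation receptor, by 0.16 ± 0.06, unadjusted p = 0.0271 in limma) and 0 lower by the same criterion (5.87% and 5.33% of all genes), while 0 passed the adjusted threshold, with a median of 0.18 and of -0.03 without Ctrl replicate 1. Cd84 ran from 10.31 to 10.52 over the 6 arrays, with a Pearson r of 0.224 with Clec4f, and the cells that gave its signal were not tested. With the replicate block the unadjusted p of Cd84 was 0.0582 in limma, and 2 other genes of this list, Clec4n and Lilrb4a, were higher at an unadjusted p of 0.0237 and 0.0395. Of 11 genes of heme and iron recycling, 0 were higher or lower at that level with all arrays, and 1 was higher with the block. Hmox1, which breaks down heme, had the smallest p of these, at 10.96, 11.39 and 11.69 in Lyve-1-KO and 10.06, 11.00 and 10.93 in Ctrl, a difference of 0.68 ± 0.29 (SE, unadjusted p = 0.0508, adjusted p = 0.449 in limma) and of 0.38 without Ctrl replicate 1. Between pools of the same number, Hmox1 was higher in Lyve-1-KO by 0.90, 0.38 and 0.76, and the block gave an unadjusted p of 0.00179 and an adjusted p of 0.239 in limma. Hmox1 followed the macrophage signal, with a Pearson r of 0.903 with Clec4f. Against the Kupffer cell level its groups overlapped, at 0.21, -0.02 and 0.04 in Lyve-1-KO and 0.59, -0.72 and -0.03 in Ctrl. That difference was 0.13, and 0.45 without Ctrl replicate 1. Slc40a1, the iron exporter ferroportin, differed by 0.13 ± 0.08.

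The genes whose pattern was most like that of the Kupffer cell identity genes were sought by Pearson r with their mean centred level over the 6 arrays, among 1492 other named genes with a standard deviation of at least 0.3. The first 10 were P2ry12, Ctsc, Fgb, Wfdc17, Ifi30, Acp5, Igsf6, Cd300ld, Igf1 and Slc11a1, with r from 0.9947 to 0.9802. Ctsc, the lysosomal protease cathepsin C, followed at 8.57, 9.34 and 9.71 in Lyve-1-KO and 7.54, 9.78 and 8.99 in Ctrl. Slc11a1, the phagosomal metal transporter Nramp1, read 8.45, 8.92 and 9.70 as compared to 7.0, 9.27 and 8.73. Fgb, a fibrinogen chain made by hepatocytes, read 7.80, 8.48 and 8.55 as compared to 6.95, 8.78 and 7.99. Without Ctrl replicate 1, 5 of these 10 genes remained among the first 10.

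Ctrl replicate 1 was also the lowest array in the mean level of hepatocyte, stellate cell, neutrophil, monocyte and dendritic cell, and T, NK and B cell markers. In stellate cell markers it was at 7.71, as compared to 7.73 to 8.27 on the other arrays, and in monocyte and dendritic cell markers at 5.52, as compared to 5.56 to 5.69. The 10 hepatocyte genes averaged 7.67, 8.80 and 7.65 in Lyve-1-KO and 7.56, 8.72 and 7.98 in Ctrl, so that replicates 2 of both groups were high and Lyve-1-KO replicate 3, rich in macrophage RNA, was not. The 8 genes of large-vessel and pericentral endothelium averaged 9.34, 9.28 and 9.26 in Lyve-1-KO and 9.86, 9.36 and 9.52 in Ctrl, with the highest level on Ctrl replicate 1, which was the highest array in 4 of the 8. There Vwf, the von Willebrand factor of large vessels, was at 10.88, as compared to 8.77 to 9.74 on the other arrays. The part of these other cells in the macrophage levels of Ctrl replicate 1 was not tested.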

How the data were processed

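Total RNA of LSEC pools was hybridised to Affymetrix MoGene-2_0-st arrays. The authors combined the probes of each Entrez gene (custom CDF version 18) and applied quantile normalization. The submitters' processing notes list RMA, with no version. The deposited values are log2 levels of 24479 genes, of which 23281 carry 1 symbol in the platform annotation and 1198 carry none here. All 6 arrays hold the same set of values, whose median is 5.04. The labels call the extracted material retina in the RNA protocol and LSECs elsewhere. Arrays have no depth, and 3 per group limit the precision.

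lmFit and eBayes of limma 3.58.1 (R 4.3.3) were run over all genes, unfiltered, and p-values were adjusted by Benjamini-Hochberg at 0.05. A one-way analysis of variance, named in the study, was run as the methods' test. Since 3 arrays against 3 cannot give an exact permutation p below 0.1, none is printed. Promoters are from RefSeq (GRCm38.p6), and all 34 symbols matched the reference through Entrez IDs. The script was tested on simulated data. The members, lists and tests were chosen with earlier results of these data known. Named genes are all members, Lyve1, up to 4 genes per other list with the smallest unadjusted p, and the 10 genes most like the Kupffer cell identity genes. Clec4n and Aoah are named in addition, for their p in alternative fits.

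Pools of both groups carry replicate numbers 1 to 3. After the group means were removed, pools of the same number correlated at 0.206, 0.134 and 0.124 across genes, as compared to -0.218 to 0.0432 for other pairs. The numbers were therefore used as a block in an alternative fit. These correlations come from the same values as that fit and cannot show that the pools were paired. Neither labels nor methods say that they were. Alternatives were this replicate block, scaling to LSEC markers, repeated quantile normalization, trend and robust variance, array quality weights, a filter at the 40th percentile and leaving out each array. P-values measure the spread between pools.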

Additional observations from a re-analysis of the deposited data

How the results depend on the processing

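No macrophage gene passed the adjusted threshold under any alternative, and the count of genes lower at an unadjusted p of 0.05 was 0 except without Ctrl replicate 1 (1, Ccr2). The count of higher genes, 0 with all arrays, was 4 with the replicate block (5.78% of all genes). It ranged from 0 to 4 when 1 array was left out, with 4 without Ctrl replicate 2 (4.6% of all genes) and 0 or 1 otherwise. Where it was 1, the share of all genes is not given, so that gene is not read as a result. With the block, no gene of the whole table passed the adjusted threshold, as compared to 1 without it, and among the further genes the block added Hmox1, Clec4n and Lilrb4a to those higher at an unadjusted p of 0.05 and took away Cd84. The median difference of 0.29 ranged from -0.05 (without Ctrl replicate 1) to 0.67 (without Ctrl replicate 2), and was 0.32 after scaling to the LSEC markers, 0.55 in the Kupffer cell identity genes alone and 0.35 as a mean. Of the 10 genes most like the Kupffer cell identity genes, 9 to 10 were shared under other limits on the standard deviation and 5 without Ctrl replicate 1. Of the 26 genes other than Clec4f that spanned at least 1 log2 unit, 1 was above and 8 below Ctrl against the Kupffer cell level. These counts were 2 and 8 without Ctrl replicate 1, and 1 and 10 against Clec4f. Array quality weights turned C1qa to -0.107, C1qc to -0.144 and Cybb to -0.031, and scaling to the LSEC markers turned Hpgd to 0.0013. The cause was not tested.

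The signs of 22 genes turned when 1 array was left out. Their lowest and highest differences were -0.074 and 1.21 for Vsig4, -0.159 and 1.07 for Cd5l, -0.145 and 0.881 for Timd4, -0.15 and 0.951 for Folr2, -0.0443 and 1.13 for Siglec1, -0.122 and 0.0166 for Hpgd, -0.439 and 0.485 for C1qa, -0.0482 and 0.847 for C1qb, -0.481 and 0.527 for C1qc, -0.0286 and 1.08 for C6 and -0.00228 and 0.495 for Fcna. They were -0.177 and 0.386 for Axl, -0.0576 and 0.39 for Trem2, -0.254 and 0.73 for Csf1r, -0.387 and 0.754 for Adgre1, -0.57 and 0.0565 for Aif1, -0.391 and 0.646 for Mpeg1, -0.178 and 0.527 for Laptm5, -0.584 and 0.333 for Ly86, -0.0189 and 0.0465 for Sirpa, -0.474 and 0.616 for Cybb and -0.34 and 0.112 for Cx3cr1. Leaving out Ctrl replicate 1 turned 19 of the 34 signs, Lyve-1-KO replicate 3 turned 5 and Ctrl replicate 2 turned 4. Where a group kept 2 arrays, its spread was assumed to be that of both groups together. The comparison against the Kupffer cell level and its alternatives were chosen after seeing the data.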

Other observations

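Among markers of other blood cells, none passed the adjusted threshold in limma. Clec9a, a receptor of cross-presenting dendritic cells, lay at 8.78, 8.35 and 8.73 in Lyve-1-KO and at 8.01, 8.05 and 7.80 in Ctrl, a difference of 0.67 ± 0.13 (SE, adjusted p = 0.209) with groups that did not overlap. Its list of 13 monocyte and dendritic cell genes did not share this, with 4 differences above 0, 9 below and a median of -0.06. Ms4a4c of the same list was lower, also in groups that did not overlap (-0.57 ± 0.16, SE, adjusted p = 0.315). The 4 platelet genes with a row all had a difference below 0, and Pf4, a platelet chemokine, lay at 5.15, 5.14 and 5.32 as compared to 5.63, 5.63 and 5.73 (-0.46 ± 0.07, SE, adjusted p = 0.168). Ms4a1, which encodes the B cell protein CD20, lay at 5.45, 5.37 and 4.38 as compared to 5.39, 6.33 and 6.29 (-0.94 ± 0.36, SE, adjusted p = 0.413). On Ctrl replicate 1, Clec9a and Pf4 were near the other Ctrl arrays, while Ms4a1 was lower than both of them.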
